A study of Mus musculus with 2 samples.

Results

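The MYC-MAX-MXD network was described here through the transcripts of 10 genes, chosen by name from the 54532 genes of the count table: Myc, Max, Mxd1, Mxd3, Mxd4, Mxi1, Mnt, Mga, Mlx and Mlxip. All 10 were found, and all 10 averaged 10 counts or more per library, the minimum for a gene to be called measured. The cells were primary CD8+ T cells from the spleens of wild-type (WT) mice, which the labels call ND mice without spelling out the term. They were cultured for 8 h in complete RPMI 1640 medium or in RPMI 1640 medium without methionine, an essential amino acid and the source of the methyl donor S-adenosylmethionine. The labels give 1 bulk RNA-seq library per medium and name no stimulus, age or sex. They do not say how many animals were pooled or whether both cultures came from the same animals. Which transcripts of these cells differ after 8 h without methionine is the question the design poses.

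MYC is a basic helix-loop-helix leucine zipper transcription factor that drives growth, ribosome production and metabolism, and in T cells it is induced by activation. It binds DNA at E-boxes only as a dimer with MAX. The MXD proteins (MXD1, MXD3, MXD4 and MXI1) and MNT also dimerise with MAX and recruit SIN3 corepressors to E-boxes, while MGA is a very large MAX partner of a repressive Polycomb complex, PRC1.6. MLX is a MAX-like protein that pairs with the nutrient-sensing factor MLXIP, also called MondoA, and with some of the MXD proteins and MNT.

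The complete-medium library held 14646527 counts and the methionine-free library 19647681. No test across replicates could be made with a single library for each medium, and none of the differences could be checked in a replicate. Folds are ratios of read counts scaled between the libraries by the TMM method, and a level is given in CPM, the reads of a gene per 1000000 scaled reads. The range in brackets after a fold is its exact conditional 95% interval. It holds the error of counting reads, not the variation between cultures, and reads without molecular identifiers are not independent molecules. A gene was called higher or lower where its fold reached 1.5, by size and not by a test. The 6 T cell markers Cd3e, Cd3d, Cd3g, Trac, Cd8a and Cd8b1 ranged from 122 to 664 CPM in complete medium and from 107 to 527 CPM in the methionine-free library. The 17 markers of B, myeloid, dendritic, NK and erythroid cells summed to 19.9 CPM and 23.1 CPM, with 1 of them, Klrb1c, at 0 in both libraries. The dendritic and progenitor gene Flt3 was the highest of the 17 without methionine, with 2.25 CPM in complete medium and 7.604 CPM in the other library. The part of other cell types in the results below was not tested. In bulk RNA, fewer cells of a type and less RNA per cell cannot be told apart. The labels name a whole-RNA and an mRNA library kit without saying which made which library; small noncoding RNA genes (snRNA, snoRNA, scaRNA and miscellaneous RNA) took 0.0117% and 0.0119% of the counts, respectively.

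Without methionine, Mxd4, Mga and Myc were past 1.5-fold higher, Mxd3 and Mxi1 were past 1.5-fold lower, and the other 5 of the 10 network genes lay between. Over all 13041 measured genes, 15.7% were past 1.5-fold higher and 18.1% past 1.5-fold lower, 33.8% in all. With 3 of 10 higher and 2 of 10 lower, the counts are too small to set the network apart from that background. The median log2 difference of the 10 genes was 0.26, beside 0.04 over all measured genes. At 2-fold, 1 gene was higher (Mxd4) and 1 lower (Mxd3), beside 5.89% and 9.49% of all measured genes.

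**Figure D1:**
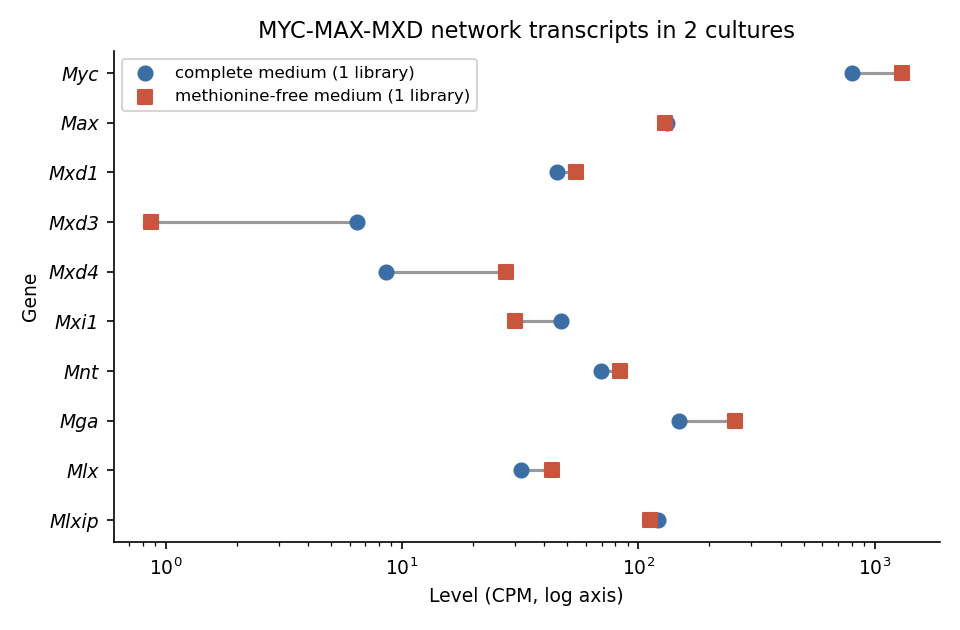
Level of each network gene in CPM (log axis) in the complete-medium library (circles) and the methionine-free library (squares), with 1 library per medium. Myc is the highest in both, at 805 and 1308 CPM, and the longest line is that of Mxd3, from 6.47 to 0.868 CPM.

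Myc (ENSMUSG00000022346, GRCm38 chromosome 15, 61985391 to 61990374, plus strand) was counted 11828 times in complete medium and 25632 times without methionine, or 805 and 1308 CPM. The methionine-free level was 1.62-fold higher (1.59 to 1.66). That difference was higher than those of 87.8% of measured genes, so about 1 gene in 8 differed by as much or more in that direction. Max (chromosome 12, 76937269 to 76962201, minus strand), whose protein is the shared dimer partner, had 1951 and 2536 counts, or 133 and 129 CPM. Its ratio was 0.974 (0.918 to 1.03), and the interval held 1. The count ratio of Myc to Max, which needs no scaling between libraries, went from 6.06 to 10.1, a change of 1.67-fold (1.57 to 1.78, from the counting error of the 4 counts). Neither gene overlaps a counted gene on the opposite strand, and Max contains an unconfirmed gene model in an intron (Gm47218, 32 and 43 counts).

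The MXD family did not move as a block. Mxd4 (chromosome 5, 34173883 to 34187720, minus strand) was counted 125 times in complete medium and 538 times without methionine, and its level went from 8.51 to 27.5 CPM. It was 3.23-fold higher (2.65 to 3.95), rank 197 from the highest of the 13041 measured genes. Mxd4 encodes the MXD repressor also called MAD4, typical of differentiated and resting cells. Mxd3 (chromosome 13, 55325168 to 55329823, minus strand) had 95 and 17 counts, or 6.47 and 0.868 CPM, and was 7.46-fold lower (4.42 to 13.3). Unlike the other members of its family, Mxd3 is known for expression in proliferating cells during S phase. Only 1.48% of measured genes had a lower log2 difference than Mxd3, and its fold rests on 17 counts. The last 105 exon bases of Mxd3 overlap Prelid1 on the opposite strand, which had 6513 and 5784 counts; they make up 4.43% of the exon bases of Mxd3. The sources used here do not say whether counting was stranded, so reads of the pair cannot be told apart in that stretch.

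Mxi1 (chromosome 19, 53310518 to 53375810, plus strand), which encodes the MXD family repressor MXI1, had 690 and 590 counts, or 47.0 and 30.1 CPM. It was 1.56-fold lower (1.40 to 1.74), close to the 1.5-fold threshold, and its interval reached below it. Mxd1 (chromosome 6, 86647042 to 86669161, minus strand), which encodes the founding MXD protein, MAD1, had 664 and 1066 counts, or 45.2 and 54.4 CPM. Its ratio was 1.20 (1.09 to 1.33). The 4 genes of the family thus pointed both ways, with Mxd4 and Mxd1 above 1 and Mxi1 and Mxd3 below it. Their counts summed to 1574 and 2211, which gave a ratio of 1.05 (0.986 to 1.12) whose interval held 1. The count ratio of Mxd4 to Mxi1 went from 0.181 to 0.912, a change of 5.03-fold (4.03 to 6.29). That change restates the differences of the 2 genes given above and is not a further result.

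Mnt (chromosome 11, 74830920 to 74845725, plus strand) encodes the broadly expressed MAX partner that competes with MYC. It had 1025 and 1635 counts, or 69.8 and 83.4 CPM, a ratio of 1.20 (1.10 to 1.29). Mga (chromosome 2, 119897228 to 119969581, plus strand) had 2182 and 5034 counts, or 149 and 257 CPM. It was 1.73-fold higher (1.64 to 1.82), above 90.3% of measured genes. The Mga to Max count ratio went from 1.12 to 1.99. Of the MAX partners outside the MXD family, Mga was thus higher by about the same factor as Myc, and Mnt by less than the threshold.

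Mlx (chromosome 11, 101087277 to 101092207, plus strand) had 466 and 841 counts, or 31.7 and 42.9 CPM, a ratio of 1.35 (1.21 to 1.52). Its 3′ end overlaps Psmc3ip on the opposite strand over 385 exon bases, 19.3% of its exon bases, and Psmc3ip went from 281 to 132 counts, the other direction. Mlxip (chromosome 5, 123394798 to 123457932, plus strand), the MondoA gene, had 1780 and 2201 counts, or 121 and 112 CPM, and a ratio of 0.927 (0.870 to 0.987). The count ratio of Mlx to Mlxip went from 0.262 to 0.382, a change of 1.46-fold (1.28 to 1.66). Both genes stayed inside the 1.5-fold limits, on different sides of 1.

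**Figure D2:**
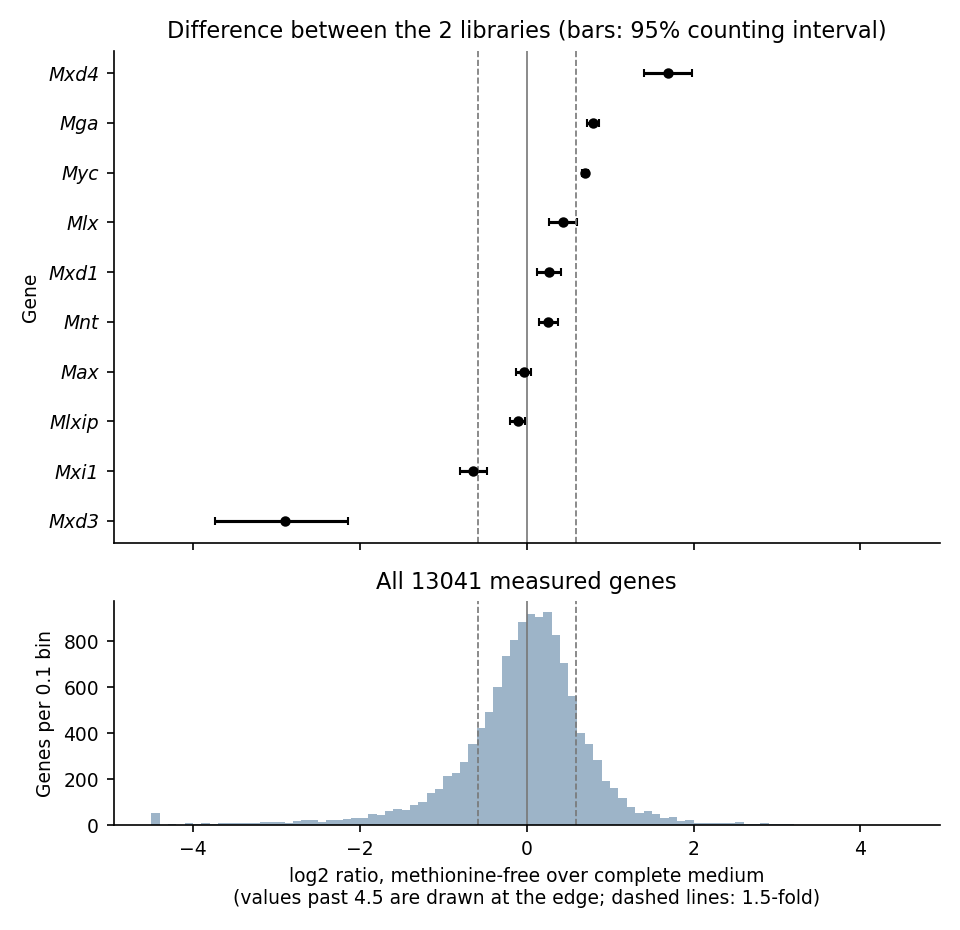
Top, log2 ratio of each network gene, methionine-free over complete medium, with 95% counting intervals; bottom, the log2 differences of all 13041 measured genes on the same axis, with dashed lines at 1.5-fold. Mxd4, at 3.23-fold higher, and Mxd3, at 7.46-fold lower, lie in the tails of the distribution, and Myc and Mga lie just past the upper dashed line.

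Levels of different genes were compared per kilobase of annotated exon sequence, in CPM per kilobase. On this scale Myc was the highest member in both libraries, at 296 in complete medium and 481 without methionine. Max followed at 36.9 and 36.0. Mlx was at 15.9 and 21.5, Mnt at 15.1 and 18.03, Mlxip at 14.6 and 13.5, and Mga at 9.69 and 16.8. Mlx, Mnt and Mlxip lay within a factor of 1.5 of each other in complete medium, and their order changed when the longest transcript was used as the length. Mxi1 was at 6.89 and 4.41, Mxd1 at 6.39 and 7.69, Mxd3 at 2.73 and 0.366, and Mxd4 at 1.003 and 3.24. Within the MXD and MXI1 pool, the order was Mxi1, Mxd1, Mxd3, Mxd4 in complete medium and Mxd1, Mxi1, Mxd4, Mxd3 without methionine. Mxi1 and Mxd1 in complete medium lay close enough that the longest transcript as the length puts Mxd1 first.

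Of the summed per-kilobase level of the 7 MAX partners Myc, Mxd1, Mxd3, Mxd4, Mxi1, Mnt and Mga, Myc made up 87.7% in complete medium and 90.5% without methionine. The partners other than Myc summed to 41.8 and 50.5 CPM per kilobase, so they were higher as a sum as well. Within the 4-gene MXD and MXI1 pool, Mxd4 made up 5.90% in complete medium and 20.6% without methionine. The share of Mxd3 went from 16.1% to 2.33% and that of Mxi1 from 40.5% to 28.1%, while that of Mxd1 went from 37.6% to 49.0%. The summed level of the pool was 17.0 and 15.7 CPM per kilobase with all exons, and 24.6 and 24.1 with the longest transcript as the length. Without weighting by length, the summed counts gave a ratio of 1.05, so the direction of the pool size depended on that weighting. The composition of the pool differed between the libraries more than its size did. These are levels of RNA, and say nothing of the proteins.

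**Figure D3:**
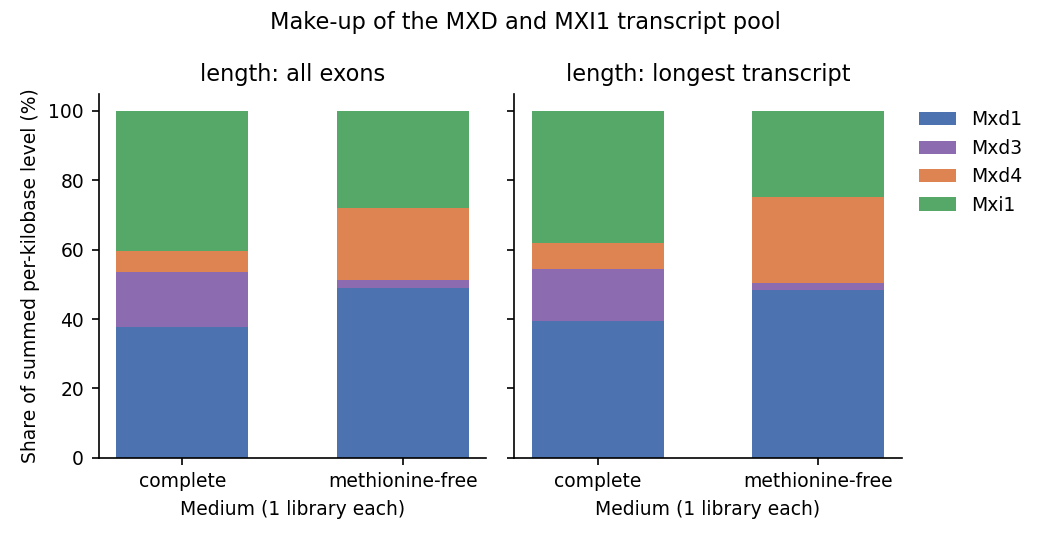
Share of Mxd1, Mxd3, Mxd4 and Mxi1 in their summed per-kilobase level (%), in 1 library per medium, with all exons (left) or the longest transcript (right) as the gene length. On either length the Mxd4 share is larger and the Mxd3 share smaller without methionine: 5.90% and 20.6% for Mxd4 with all exons, and 7.49% and 24.6% with the longest transcript.

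Promoter windows from RefSeq (GRCm38.p6), 250 bases before to 50 after a gene's start, were matched by symbol for 9 of the 10 members, in 11 windows, since Mxi1 has 3. The member without a window was Myc, so the Myc promoter was not searched for any motif. They were searched on both strands for the palindromic E-box CACGTG that MYC-MAX, MXD-MAX, MNT-MAX and MLX dimers bind. Windows of Mxd4, Mnt, Mlx and Max held it, 4 of the 9 genes. Of all 32851 windows in the table, 7.15% held it, and of the 9267 measured genes with a window, 11.9% did. The 3 upstream sequences are shown because they carry the network's own binding letters in front of its members. They run 5′ to 3′ on the gene's strand up to the RefSeq or GENCODE start, whichever lies further upstream, with the E-box in capitals.
Mxd4: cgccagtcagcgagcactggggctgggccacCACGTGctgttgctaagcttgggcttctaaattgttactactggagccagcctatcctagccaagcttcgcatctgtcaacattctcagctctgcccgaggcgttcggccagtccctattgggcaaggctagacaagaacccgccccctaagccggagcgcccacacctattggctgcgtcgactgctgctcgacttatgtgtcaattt
Mnt: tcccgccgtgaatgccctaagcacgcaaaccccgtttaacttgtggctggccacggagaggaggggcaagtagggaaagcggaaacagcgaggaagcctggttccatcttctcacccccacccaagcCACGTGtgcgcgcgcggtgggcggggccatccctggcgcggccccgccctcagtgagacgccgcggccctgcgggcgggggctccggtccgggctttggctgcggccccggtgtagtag
Mlx: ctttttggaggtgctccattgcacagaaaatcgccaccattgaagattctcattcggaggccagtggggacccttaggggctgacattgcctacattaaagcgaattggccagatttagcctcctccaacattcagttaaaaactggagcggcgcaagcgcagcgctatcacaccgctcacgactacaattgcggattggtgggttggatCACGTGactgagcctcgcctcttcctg
These lie at chr5:34187721-34187960, minus strand, for Mxd4, chr11:74830674-74830919, plus strand, for Mnt, and chr11:101087040-101087276, plus strand, for Mlx. The E-box began 219 bases before the RefSeq start of Mxd4, 123 before that of Mnt and 40 before that of Mlx. In Max it began 3 bases before the start and ran across it, in this stretch around the start:
Max: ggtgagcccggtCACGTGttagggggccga
The 4 genes with an E-box in the window differed between the libraries by 3.23-fold for Mxd4 and by ratios of 1.20 for Mnt, 1.35 for Mlx and 0.974 for Max, so they did not share a size of difference. A match describes letters in this window, not occupancy.

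The window of Mxd3, the member with the largest difference, is shown for another motif. This motif was chosen after the value of Mxd3 was seen. On either strand, the E2F-type sequence GGCGGGAA was found in 1 of the 9 members' genes, Mxd3. Of all windows 2.19% held it, and of the 9267 measured genes with a window, 5.08% did. E2F factors drive genes of the S phase. The sequence lies at chr13:55329824-55329981, minus strand, with the motif in capitals. The motif began 137 bases before the RefSeq start of Mxd3, which lies inside the gene as GENCODE annotates it. The printed stretch ends where that longer gene begins.
Mxd3: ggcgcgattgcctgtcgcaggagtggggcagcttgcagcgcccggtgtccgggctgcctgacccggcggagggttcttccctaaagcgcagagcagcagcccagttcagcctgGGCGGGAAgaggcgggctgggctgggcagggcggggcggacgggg
Over measured genes with a window, 471 held this motif, with a median log2 difference of -0.08, and the 8796 others had a median of 0.06. At least 1.5-fold lower were 23.8% of the genes with it and 16.7% of those without, and at least 1.5-fold higher 7.86% and 15.1%. Whether E2F factors had a part in the difference of Mxd3 was not tested. For the E-box, the 1106 genes with it had a median of 0.12 and the 8161 without it 0.04. Of those with and without the E-box, 14.6% and 17.4% were at least 1.5-fold lower, and 16.9% and 14.5% at least 1.5-fold higher. The 11 windows, which do not include Myc, held neither the 8-letter cyclic AMP response element TGACGTCA nor the amino acid response element TGATGNAAT on either strand. Of all windows, 1.79% and 0.965% held them.

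MYC-activated growth targets, a list of 40 genes of ribosome production, nucleotide and amino acid supply and translation, were all measured. Of these, 4 were past 1.5-fold higher without methionine and 4 past 1.5-fold lower, and the other 32 lay between, beside the 15.7% and 18.1% of all genes. The median log2 difference was 0.03, near the 0.04 of all measured genes. Myc itself was 1.62-fold higher, and its part in the differences of these genes was not tested. The 4 genes with the largest differences went both ways. Apex1, the gene of a DNA repair endonuclease, had 623 and 1754 counts, 2.11-fold higher (1.92 to 2.32). It shares 61.7% of its exon bases with Pip4p1 on the opposite strand, which had 363 and 539 counts, so it is uncertain. Imp4, of the small ribosomal subunit processome, had 1542 and 3584 counts, 1.74-fold higher (1.64 to 1.85). Tert, the telomerase reverse transcriptase gene, had 101 and 79 counts, 1.71-fold lower (1.26 to 2.32). Tfrc, the transferrin receptor gene, went from 873 to 529 CPM, 1.65-fold lower (1.61 to 1.69). Of the 31 list members with a promoter window, 12 held an E-box (38.7%, beside 11.9% of measured genes); their median was 0.10, and that of the 19 others 0.04.

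Genes listed as repressed by MYC numbered 15, of which 14 were measured. Past 1.5-fold, 6 were higher and 3 lower, beside 15.7% and 18.1% of all measured genes. The list was chosen with earlier results of these data known, so its share is no evidence of enrichment. With a mean of at least 100 counts, Thbs1 dropped out, and 5 were higher and 3 lower. The median was 0.28, beside 0.04. Gadd45b, a stress-induced growth arrest gene, had 1441 and 6523 counts, 3.39-fold higher (3.20 to 3.595). Btg1, an antiproliferative gene of resting lymphocytes, had 2417 and 9031 counts, 2.80-fold higher (2.68 to 2.93). Thbs1, the thrombospondin gene, had 5 and 29 counts, a ratio of 4.35 (1.66 to 14.4). Cdkn2c, which encodes the CDK inhibitor p18, had 446 and 209 counts, 2.85-fold lower (2.41 to 3.37). The list had members on both sides of the limits.

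Corepressors and coactivators of the network are read against the 15.7% of all measured genes past 1.5-fold higher and the 18.1% past 1.5-fold lower. Of 15 measured corepressor genes of MXD and MNT, 1 was past 1.5-fold higher and 1 lower, and the median was -0.06. Brms1, which encodes a SIN3 complex subunit, had 537 and 1298 counts, 1.81-fold higher (1.64 to 2.01), and Sap18, another SIN3-associated gene, had 1584 and 1192, 1.77-fold lower (1.64 to 1.91). Sin3a, the scaffold gene of the complex, went from 149 to 143 CPM and Sin3b from 104 to 114 CPM. The histone deacetylase gene Hdac1 was 1.38-fold lower (1.31 to 1.45) and Sap30 1.40-fold lower (1.25 to 1.56), both inside the limits. Of 18 MYC cofactor genes, all measured, none was past 1.5-fold higher and 1 was lower, beside 33.8% of all genes in either direction, and the median was 0.01. That gene, Actl6a, of chromatin remodelling and histone acetylation complexes, was 1.51-fold lower (1.40 to 1.62), at the edge of the threshold. Ruvbl2, an ATPase gene, was 1.41-fold lower (1.35 to 1.47), Kat2a, of the acetyltransferase GCN5, 1.25-fold lower (1.17 to 1.33), and Cdc73, of the PAF1 elongation complex, 1.32-fold higher (1.23 to 1.42). Actl6a shares 11.6% of its exon bases with Mrpl47 on the opposite strand, and Ruvbl2 10.7% with Gys1.

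Of 14 measured genes for partners of MGA and MAX in PRC1.6, 3 were past 1.5-fold higher and 2 past 1.5-fold lower, near the 33.8% of all genes past either limit, and the median was -0.06. The Polycomb ubiquitin ligase gene Rnf2 had 734 and 2116 counts, 2.16-fold higher (1.99 to 2.35), and Rybp, a PRC1 subunit gene, had 427 and 1038 counts, 1.82-fold higher (1.63 to 2.04). Pcgf6, which encodes the Polycomb subunit particular to PRC1.6, had 614 and 1346 counts and was the third past 1.5-fold higher. Tfdp1, the dimer partner of the E2F factors, had 5736 and 4074 counts, 1.88-fold lower (1.80 to 1.96). Cbx3, a heterochromatin protein gene, had 2204 and 1597 counts, 1.84-fold lower (1.73 to 1.97), and 8 pseudogenes named after it, with 11 and 16 counts, could share its reads. Hdac1, Hdac2 and Wdr5 stand in this list and in another of the lists. Of 12 germline genes that PRC1.6 keeps silent, the cohesin gene Stag3 alone was measured, with 225 and 151 counts, 1.99-fold lower (1.61 to 2.46). Ddx4 had 8 and 7 counts, and Mael, Taf7l, Tex101, Slc25a31 and Smc1b had 0 in both libraries, which allows up to 3 counts, or 0.204 CPM in complete medium and 0.153 CPM in the methionine-free library.

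Genes that control the stability of the MYC protein held the lowest log2 differences among the measured members and list genes, Plk1 at -4.41 and Cip2a at -3.45. Next came the member Mxd3 at -2.86, and then Aurka of this list at -2.23. Of 20 measured genes, 1 was past 1.5-fold higher and 4 past 1.5-fold lower, beside 15.7% and 18.1% of all genes, and the median was 0.00. At 2-fold, the same 4 of the 20 were lower, beside 9.49% of all genes, and 1 was higher, beside 5.89%. The mitotic kinase gene Plk1 had 773 and 48 counts, 21.5-fold lower (16.04 to 29.4). Cip2a, an inhibitor of the phosphatase PP2A that stabilises MYC, had 743 and 90 counts, 11.0-fold lower (8.84 to 13.9). Aurka, the gene of the mitotic kinase Aurora A, had 463 and 131 counts, 4.71-fold lower (3.88 to 5.77), and the ubiquitin ligase gene Skp2 had 311 and 160 counts. Plk1, Aurka and Skp2 are also known as cell cycle genes, and these lay lower in the methionine-free library, as did Mxd3. The part of cell cycle state in the difference of Mxd3 was not tested. The ubiquitin ligase gene Fbxo32 had 88 and 372 counts, 3.17-fold higher (2.50 to 4.04). Fbxw7, the gene of the main MYC ubiquitin ligase, went from 26.5 to 28.7 CPM, and Gsk3b, the kinase that marks MYC for it, from 87.1 to 104 CPM.

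Among related factors that bind E-boxes, 6 of 9 genes were measured, with 2 past 1.5-fold higher and 1 lower, beside 15.7% and 18.1% of all genes, and a median of 0.04. Mycn, the more abundant of the 2 MYC paralogs listed, had 43 and 57 counts, or 2.93 and 2.91 CPM, against 805 and 1308 CPM for Myc. Mycl had 1 and 3 counts, and Mlxipl, the ChREBP gene and paralog of Mlxip, had 0 and 1. Tfe3, a nutrient-regulated lysosomal factor gene, had 507 and 1136 counts, 1.68-fold higher (1.51 to 1.87), and its relative Tfeb had 166 and 89 counts, 2.49-fold lower (1.91 to 3.26). Mitf had 5 and 35 counts, a ratio of 5.25 (2.05 to 17.2) on few counts. Usf1 and Usf2, general E-box factor genes, had levels of 45.5 and 49.6 CPM in complete medium, and 42.6 and 53.1 CPM in the methionine-free library. Tfec had 0 counts in both libraries.

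Of 7 listed targets of the MLXIP-MLX dimer 6 were measured. Past 1.5-fold, 1 was higher and 1 lower, near the 15.7% and 18.1% of all genes, and the median was 0.28. Arrdc4, an arrestin family gene that restrains glucose uptake, had 88 and 388 counts, 3.30-fold higher (2.62 to 4.21). Txnip, its relative and the best-known MondoA target, had 2046 and 4036 counts, or 139 and 206 CPM, a ratio of 1.48 (1.40 to 1.56), just under the threshold. Arrdc3 had a ratio of 1.34 (1.13 to 1.59). Klf10, a Krüppel-like factor gene, had 535 and 333 counts, 2.14-fold lower (1.87 to 2.46). The glycolytic genes Hk2 and Pfkfb3 went from 434 to 351 CPM and from 153 to 169 CPM, and Pklr had 0 counts in both libraries.

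**Figure D4:**
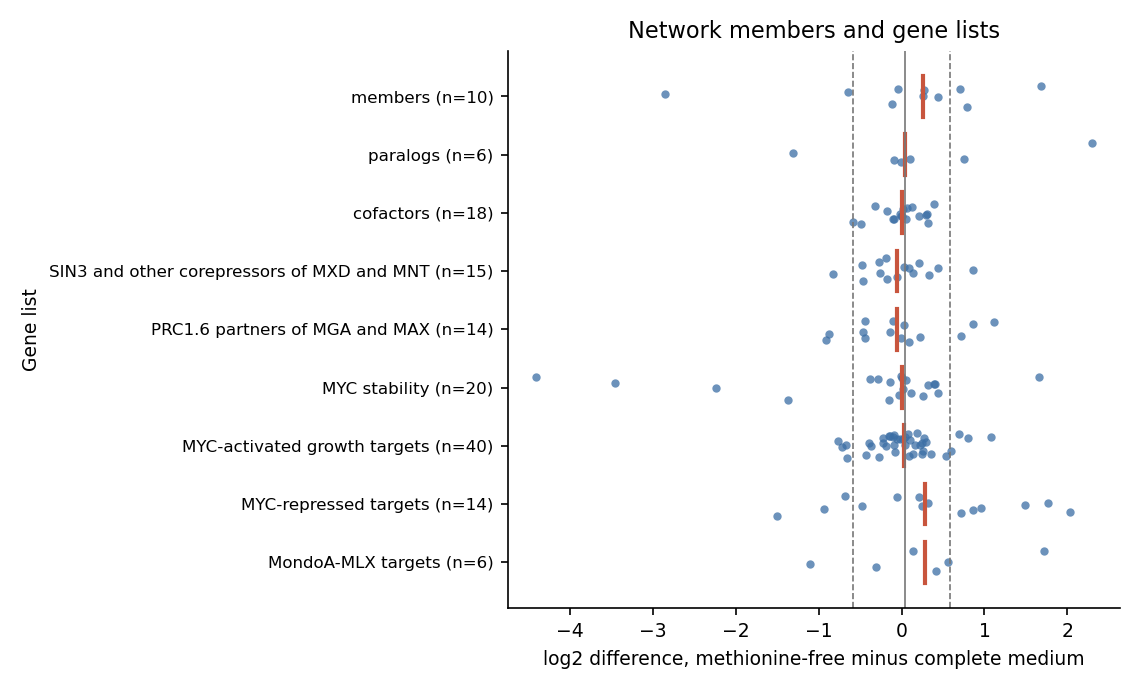
log2 difference of each measured gene, methionine-free minus complete medium, for the 10 network genes and 8 lists of linked genes (points), with each list's median (thick bars), the median of all measured genes (solid line) and 1.5-fold (dashed lines). List medians lie between -0.06 and 0.28, while single genes reach from -4.41 (Plk1) to 2.30 (Mitf).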

How the data were processed

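RNA-seq was compared between 1 complete-medium and 1 methionine-free library of mouse splenic CD8+ T cells. The authors deposited raw counts per gene as whole numbers. Per the submitters' processing notes, reads were placed on mm10. No aligner, counter, annotation release or strand setting is named in the sources used here. Columns were matched to samples by their names and the labels. Symbols, coordinates (1-based) and lengths came from GENCODE M21 (GRCm38, the same assembly); 54495 of 54532 identifiers matched.

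Counts were scaled by TMM in edgeR 4.0.16 (R 4.3.3). Genes averaging 10 counts or more per library were called measured. Log2 differences used a prior count of 0.5; printed folds did not. Intervals (95%) are exact Clopper-Pearson, from scipy 1.17.1; those of changes in a ratio between members are normal approximations on the log scale. A count of 0 was set against a floor of 3 counts. With 1 library per medium no test was possible. The steps were tested on simulated data with known folds.

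The members and lists were chosen with earlier results of these data known. The text names all 10 members, the 4 genes of each list with the largest absolute log2 difference, and all measured genes of the related-factor, germline and MLX target lists. Chosen after their values were seen were Pcgf6, Skp2, Sin3a, Sin3b, Fbxw7 and Gsk3b, the genes below the minimum count, and the motifs searched. Alternatives covered scaling (DESeq2 1.42.0 size factors, total count, upper quartile), the minimum count, the threshold, the prior count and the length.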

Additional observations from a re-analysis of the deposited data

How the results depend on the processing

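Scaling with DESeq2 size factors, total counts or the upper quartile moved each member's fold by at most 0.862%, and left 3 members higher and 2 lower. A prior count of 2 moved a member's log2 difference by at most 0.115. At 2-fold, 1 member was higher and 1 lower. Of the measured genes of the other lists, 8 were higher and 7 lower at 2-fold, against 18 and 18 at 1.5-fold. Those lists held 40, 20, 18, 15, 14, 14, 6, 6 and 1 measured genes. In the counts, Hdac1, Hdac2 and Wdr5, which stand in more than 1 list, were taken once. Over all measured genes, 5.89% were higher and 9.49% lower at 2-fold, and 15.7% and 18.1% at 1.5-fold. With a mean of at least 100 counts, 1 member was lower, since Mxd3 has fewer. With the upper quartile, Actl6a was no longer past 1.5-fold, so 0 cofactors were lower. With the longest transcript as length, Myc was 14.0 times the MXD and MXI1 sum in complete medium and 23.2 times without methionine, against 17.4 and 30.7 with all exons. No paired analysis was possible because there is 1 library per medium; for the same reason no library could be left out. The column names of the count table carry the numbers 2 (complete medium) and 1 (methionine-free), and the sources used here do not say what they number. At these depths a count was worth 0.0681 and 0.0510 CPM, which limits Mxd3, Mitf and Thbs1 most.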
